A study of Homo sapiens with 8 samples.

Results

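Transcripts of 10 genes that control the G1 phase of the cell cycle were described in the colorectal cancer lines SW480 and SW620 and in SW620 carrying hairpin RNAs. They were the D-type cyclins CCND1, CCND2 and CCND3, their partner kinases CDK4 and CDK6, the retinoblastoma gene RB1, the kinase inhibitors CDKN1B, CDKN2B and CDKN2C, and the growth regulator MYC. Genes were taken by symbol from the deposited count tables, and all 10 were found among 40693 symbols. RNA was sequenced from 8 libraries. One library came from untreated SW480, which the labels place at Dukes' type B, and 1 from untreated SW620, placed at Dukes' type C. The other 6 were all SW620, with 3 libraries of a control hairpin (shNC) and 3 of a hairpin against the transcription factor FOXA2 (shFOXA2). Both hairpins were carried by a lentiviral vector that also encodes puromycin resistance and mCherry, and infected cells were kept as stable puromycin-selected populations, so the shNC cells share vector and selection with shFOXA2. No label ties the replicate libraries to separate cultures, so the p-values cover only the spread between these libraries. The untreated lines have 1 library each and no replicate check.

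In G1, D-type cyclins bind CDK4 or CDK6, and the active kinase phosphorylates the retinoblastoma protein. Phosphorylated retinoblastoma protein releases E2F transcription factors, which switch on genes for S phase. Inhibitors of the INK4 family, among them the products of CDKN2B (p15) and CDKN2C (p18), bind CDK4 and CDK6, while p27 from CDKN1B acts on cyclin E with CDK2. MYC drives ribosome production and growth, and in the colon it is a known target of Wnt signalling, as is CCND1.

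Total counts were 72323506 in SW480, 95935348 in SW620 and 7478411 to 13076566 in the hairpin libraries. A count of 3, used as the floor for a gene at 0, is worth 0.0415 CPM (the count scaled to the library total) in SW480, 0.0313 in SW620 and 0.229 to 0.401 in the hairpin libraries, and intervals and floors cover counting error only. Mitochondrial transcripts took 11.7% and 11.1% of counts in the untreated libraries and 4.46% to 4.82% in the hairpin libraries. Summed markers of colon epithelium lay between 6074 and 8932 CPM in all 8 libraries, with 8 to 10 of 10 genes above 0, and KRT20 and CDX1 were at 0 in SW480. Summed leukocyte markers (6 genes) reached 18.3 to 23.9 CPM in shNC and 23.8 to 28.0 in shFOXA2, with CD3E at 0 in all 6 libraries. Summed fibroblast markers (6 genes) reached 11.0 to 12.6 CPM in shNC and 15.8 to 20.8 in shFOXA2, with COL1A2 and COL3A1 at 0 in every library. Endothelial markers (3 genes measured) summed to at most 3.59 CPM in any library. In the hairpin comparison 4 of 9 tested colon markers passed higher and 3 lower, and 1 of 4 leukocyte markers and both tested fibroblast markers passed higher. Over all 16100 tested genes 19.2% passed higher and 19.8% lower. The leukocyte marker was LYZ, at 4.86 CPM in shNC and 8.72 in shFOXA2 (log2 fold change 0.85). CD68 measured 14.3 and 15.3 and did not pass. The fibroblast markers were COL1A1, at 2.17 and 4.42 CPM (1.06), and LUM, at 8.87 and 12.8 (0.53). In untreated SW620 LYZ held 904 counts, LUM 715 and COL1A1 203, against 42, 0 and 218 in SW480. Of the colon markers 1 passed lower with shFOXA2 replicate 1 left out, and 2 passed higher with shNC replicate 2 left out. Of the fibroblast markers 3 passed higher with shFOXA2 replicate 3 left out. The part of other cells in the results below was not tested.

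The target sequence of the hairpin is shown first, since every hairpin value rests on it. The shFOXA2 libraries are titled with hairpin 1, whose 21-base target in FOXA2 is given 5′ to 3′ with bases 11 to 20 in capitals, the stretch that was searched in 7-base pieces.
FOXA2 hairpin 1 target: gaacggcatgAACACGTACAt
FOXA2 (ENSG00000125798.10) measured 52.5, 49.0 and 51.9 CPM in shNC replicates 1 to 3 and 30.3, 29.3 and 22.2 in shFOXA2 replicates 1 to 3. It fell (log2 fold change -0.91, SE 0.09, adjusted p = 6.88e-10 by the edgeR quasi-likelihood test with Benjamini-Hochberg adjustment, used for every adjusted p below), and the groups did not overlap. Pieces of 7 bases, 3 in all, were searched in the 3′ UTRs of the 10 genes. ACGTACA occurs in the 3′ UTRs of 2.46% of 12445 genes, ACACGTA in 3.01% and AACACGT in 3.94%. No 3′ UTR of the 10 genes held any of them, although the longest of CDK6 runs to 10219 bases and that of CCND2 to 5341.

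Of the 10 genes, 9 passed the expression filter in the hairpin libraries and 7 of these passed the test, 4 higher in shFOXA2 and 3 lower. Over all 16100 tested genes 39.0% passed, 19.2% higher and 19.8% lower. In the same 7 genes the 3 shFOXA2 libraries did not overlap with the 3 shNC libraries, against 48.7% of all tested genes. The median log2 fold change of the 9 genes was 0.02, and 0.01 over all tested genes. CCND3, CDK6, RB1 and CDKN2B rose, CCND1, CDK4 and CDKN2C fell, and CDKN1B and MYC did not pass. CCND2 was left out by the filter. Each class of G1 regulator with several tested genes, the cyclins, the kinases and the inhibitors, held genes that moved in opposite directions.

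**Figure D1:**
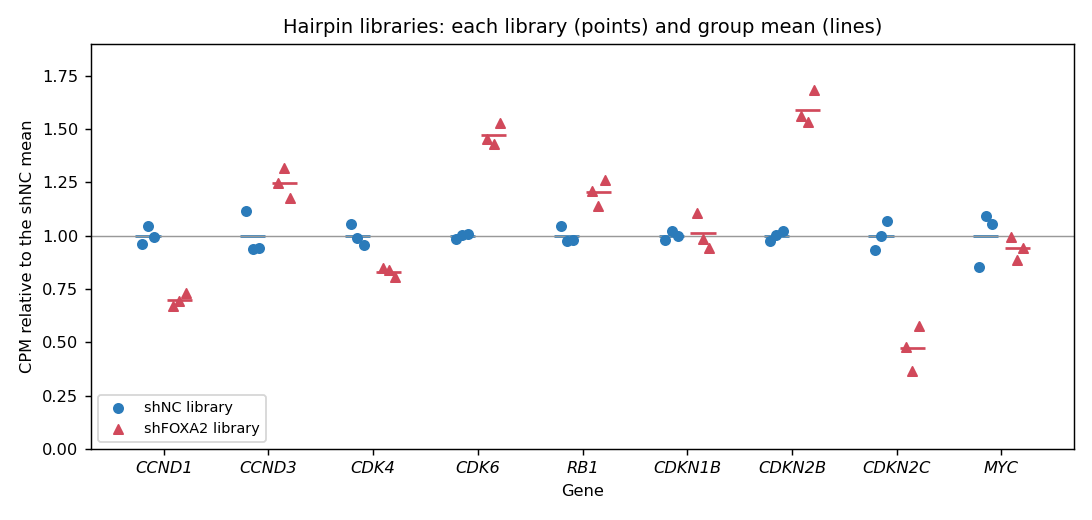
CPM of each hairpin library divided by the mean of the 3 shNC libraries, for the 9 tested genes (linear axis from 0). Points are libraries and short lines are group means. The shFOXA2 points lie apart from shNC for 7 genes and overlap for CDKN1B and MYC.

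Between the untreated lines all 10 genes had enough counts to be compared, and 3 lay at least 4-fold apart: CDK6 higher in SW620, and CCND1 and CCND2 higher in SW480. Over 21343 eligible genes 5.14% lay that far apart, 2.27% higher in SW620 and 2.87% higher in SW480. The median log2 ratio of SW620 over SW480 was -0.62 for the 10 genes and 0.02 for all eligible genes. These are differences between 1 library and 1 library and carry no test. In bulk RNA, a lower level from fewer expressing cells and from less RNA per cell cannot be told apart.

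**Figure D2:**
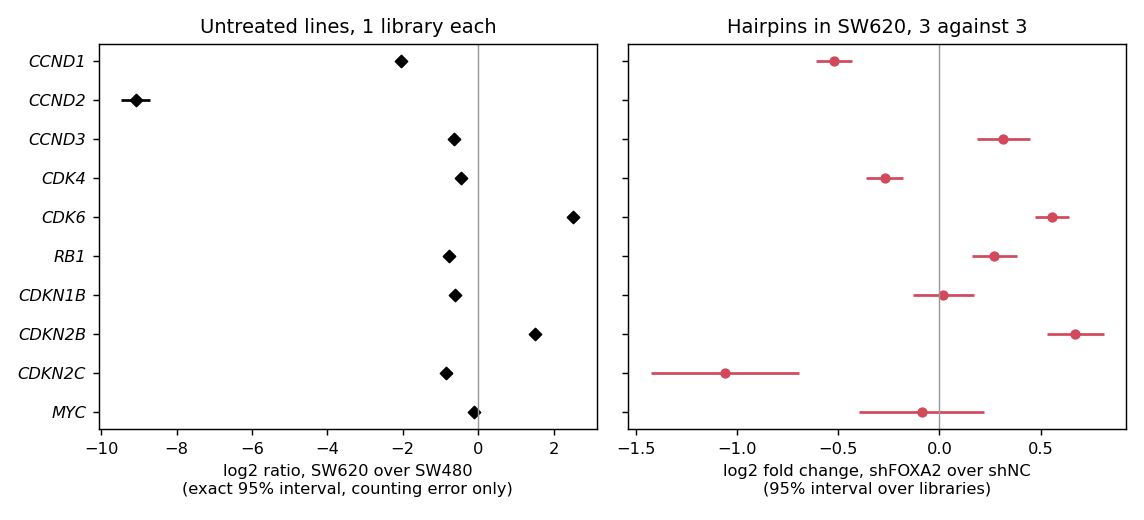
Log2 ratio of SW620 over SW480 (left, exact 95% interval of the 2 counts) and log2 fold change of shFOXA2 over shNC (right, 95% interval over 3 against 3 libraries) for the 10 genes; CCND2 was not tested in the hairpin libraries. CCND2 stands farthest from 0 on the left and CDKN2C on the right.

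CCND1 encodes cyclin D1, the main D cyclin of many epithelial cells. Its transcript (ENSG00000110092.3) measured 625, 682 and 647 CPM in shNC replicates 1 to 3 and 437, 450 and 475 in shFOXA2 replicates 1 to 3. All shFOXA2 libraries were lower than all shNC libraries. The mean went from 651 ± 28.6 (SD, n = 3) to 454 ± 19.2 (n = 3), a 1.43-fold fall (log2 fold change -0.52, SE 0.04, adjusted p = 2.77e-13). The untreated SW480 library held 138828 counts of CCND1 and the SW620 library 45860. Scaled to depth this was 4.16-fold higher in SW480 (exact 95% interval 4.11 to 4.20), the largest difference of the 10 genes after CCND2 and CDK6.

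CCND2 encodes cyclin D2 and had the widest range of the 10. It held 23957 counts in SW480 and 61 in SW620, a 539-fold higher scaled level in SW480 (exact 95% interval 419.6 to 705). In shNC it had 1, 1 and 0 counts and in shFOXA2 7, 2 and 3 counts. Most of these are at or under the floor of 3 counts, and only shFOXA2 replicate 1 was above it. With the expression filter removed, its log2 fold change was 2.68 (SE 1.05, adjusted p = 0.0494), a value that rests on these few counts.

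CCND3 encodes cyclin D3 and moved opposite to CCND1 in the hairpin libraries. Its transcript (ENSG00000112576.8) measured 64.0, 53.9 and 54.1 CPM in shNC and 71.5, 75.5 and 67.5 in shFOXA2. The groups did not overlap, with shNC replicate 1 the nearest to shFOXA2. The log2 fold change was 0.32 (SE 0.06, adjusted p = 0.000133), a 1.25-fold rise. Between the untreated lines it was 1.57-fold higher in SW480 (4721 against 4127 counts, exact 95% interval 1.51 to 1.64).

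To compare cyclins with each other, levels were divided by the listed gene length and given as CPM per kilobase, scaled over all 8 libraries. The D cyclins together came to 479 CPM per kilobase in SW480 and 107 in SW620. They summed to 142, 151 and 145 in shNC and 102, 105 and 109 in shFOXA2. CCND1 was the most abundant D cyclin in every library. Its share of the 3 was 87.1% in SW480 and 92.3% in SW620, while CCND2 took 10.1% in SW480 and 0.083% in SW620. In shNC the CCND1 share was 91.5%, 93.3% and 92.9%, and in shFOXA2 87.0%, 86.7% and 88.5%. The shares did not overlap, with a difference of -5.16 percentage points, and the CCND3 share made up nearly all of it, at 7.44% ± 0.961 in shNC and 12.6% ± 0.961 in shFOXA2 (SD, n = 3 each). An exact two-sided permutation test of 3 against 3 cannot go below p = 0.1, so the shares are given without a call.

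**Figure D3:**
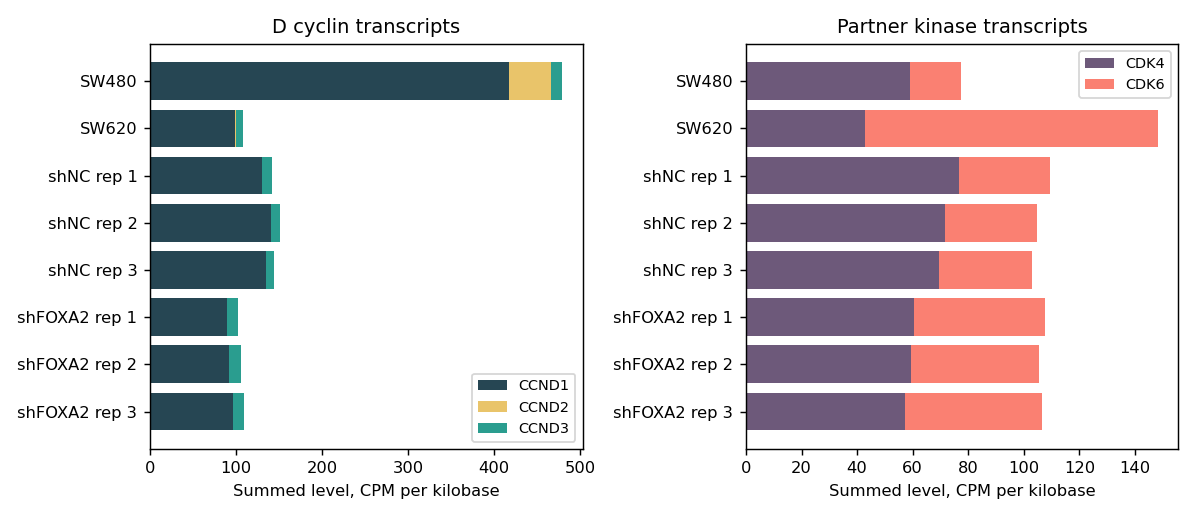
Summed level in CPM per kilobase of the 3 D cyclin transcripts (left) and of CDK4 and CDK6 (right) in each of the 8 libraries, on linear axes from 0. CCND2 is visible only in SW480, and the CDK6 part of the kinase bar is widest in SW620.

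CDK4 and CDK6 encode the kinases that D cyclins activate. CDK4 (ENSG00000135446.12) measured 243, 228 and 220 CPM in shNC and 195, 193 and 185 in shFOXA2, with no overlap. The log2 fold change was -0.27 (SE 0.05, adjusted p = 4.30e-06), 1.21-fold lower. CDK6 (ENSG00000105810.5) went the other way, from 397, 404 and 407 CPM in shNC to 586, 577 and 616 in shFOXA2. It rose 1.47-fold (log2 fold change 0.56, SE 0.04, adjusted p = 9.45e-15), with the smallest p of the 9 tested genes. The SD over libraries was 4.92 CPM around a mean of 403 in shNC and 20.8 around 593 in shFOXA2, so the rise was far larger than the spread.

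The kinases also stood apart between the untreated lines. CDK6 had 15609 counts in SW480 and 123465 in SW620, 5.76-fold higher in SW620 (exact 95% interval 5.67 to 5.86). CDK4 had 12871 and 13018 counts, 1.36-fold higher in SW480 after scaling (exact 95% interval 1.32 to 1.39). Per kilobase, CDK6 made up 23.9% of the 2 kinases in SW480 and 71.0% in SW620. Its share was 29.7%, 31.5% and 32.4% in shNC and 43.7%, 43.6% and 46.2% in shFOXA2. All 3 shFOXA2 shares lay above all 3 shNC shares, and the share in untreated SW620 lay above both hairpin groups.

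RB1 encodes the retinoblastoma protein, the substrate of these kinases. Its transcript (ENSG00000139687.9) measured 71.3, 66.6 and 67.1 CPM in shNC and 82.6, 78.0 and 86.3 in shFOXA2. The groups did not overlap and the log2 fold change was 0.27 (SE 0.05, adjusted p = 8.23e-05), a 1.20-fold rise. LPAR6, a lysophosphatidic acid receptor gene, lies inside the span of RB1 on the opposite strand in GENCODE v29 on GRCh38, and went from 1.79, 3.15 and 3.91 CPM to 12.6, 11.0 and 15.5 (log2 fold change 2.15, adjusted p = 3.70e-09). The kit keeps strand, but no label or table says whether the counting did, so the part of LPAR6 reads in the RB1 count was not tested. In the untreated lines RB1 was 1.71-fold higher in SW480 (9084 against 7298 counts, exact 95% interval 1.66 to 1.76), while LPAR6 had 103 and 156 counts.

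In that annotation CCND1 lies on chromosome 11 from 69641087 to 69654474 and CCND2 on chromosome 12 from 4273772 to 4305350, both on the plus strand, and CCND3 on the minus strand of chromosome 6 from 41934933 to 42050357. CDK4 lies on the minus strand of chromosome 12 from 57747727 to 57756013, and CDK6 on the minus strand of chromosome 7 from 92604921 to 92836594. RB1 spans 48303726 to 48599436 on the plus strand of chromosome 13. CDKN1B lies on chromosome 12 from 12715058 to 12722371 (plus), CDKN2B on chromosome 9 from 22002903 to 22009363 (minus) and CDKN2C on chromosome 1 from 50960745 to 50974633 (plus).

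Opposite-strand neighbours, noncoding RNAs and pseudogenes included, overlap 7 of the 10 genes in GENCODE v29. The share over all genes was not computed, so this count is only a description. TSPAN31, which overlaps the 3′ part of CDK4, moved with it, from 117 ± 3.80 to 98.1 ± 3.42 CPM (n = 3 each, log2 fold change -0.25, adjusted p = 3.85e-05). As with LPAR6 and RB1, use of strand in the counting is not stated, so the part of shared reads in these 2 counts was not tested. CDKN2B-AS1, the antisense RNA across CDKN2B, had a log2 fold change of -0.35 (adjusted p = 0.289) at 2.73 and 2.09 CPM, far below CDKN2B. FAF1, the gene beside CDKN2C, fell by 0.28 on the log2 scale (adjusted p = 0.000186), from 63.9 ± 2.80 to 52.6 ± 1.29 CPM.

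The 3 inhibitor genes gave 3 different results in the hairpin libraries. CDKN2B (ENSG00000147883.9), the gene of p15, measured 32.5, 33.5 and 34.1 CPM in shNC and 52.0, 51.1 and 56.2 in shFOXA2. It rose 1.59-fold without overlap (log2 fold change 0.67, SE 0.07, adjusted p = 1.18e-10). CDKN2C (ENSG00000123080.6), the gene of p18, measured 7.32, 7.85 and 8.38 CPM in shNC and 3.76, 2.85 and 4.51 in shFOXA2. It fell 2.12-fold without overlap (log2 fold change -1.06, SE 0.18, adjusted p = 6.55e-06). This was the lowest-expressed of the 9 tested genes, with 94, 102 and 103 counts in shNC and 45, 21 and 45 in shFOXA2, and its 95% interval of -1.42 to -0.69 was the widest of the 9. So the INK4 genes CDKN2B and CDKN2C moved in opposite directions in the same libraries.

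CDKN1B (ENSG00000111276.6), the gene of p27, measured 38.0, 39.8 and 38.7 CPM in shNC and 43.1, 38.2 and 36.6 in shFOXA2. The shFOXA2 values lay on both sides of shNC. The log2 fold change was 0.02 (SE 0.07, adjusted p = 0.861), with a 95% interval of -0.13 to 0.17. Protein levels of p27 are known to be set largely by degradation, which RNA does not show.

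In the untreated lines CDKN2B ran opposite to CDKN2C and CDKN1B. It had 497 counts in SW480 and 1939 in SW620, 2.84-fold higher in SW620 (exact 95% interval 2.57 to 3.14), short of the 4-fold threshold. CDKN2C was 1.79-fold higher in SW480 (1037 against 795 counts, exact 95% interval 1.63 to 1.97). CDKN1B was 1.52-fold higher in SW480 (3747 against 3374 counts, exact 95% interval 1.46 to 1.60).

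MYC (ENSG00000136997.10) was the most abundant of the 10 genes per kilobase in both hairpin groups. It measured 544, 696 and 673 CPM in shNC and 633, 566 and 601 in shFOXA2, so the groups overlapped, with shNC replicate 1 the lowest of all 6. The log2 fold change was -0.09 (SE 0.12, adjusted p = 0.626), with a 95% interval of -0.40 to 0.22. With shNC replicate 1 left out, MYC had a log2 fold change of -0.20 and passed the test (adjusted p = 0.000145), so its call depends on that library. Between the untreated lines MYC differed least of the 10, with 17288 counts in SW480 and 21870 in SW620, 1.09-fold higher in SW480 after scaling (exact 95% interval 1.06 to 1.11).

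Per kilobase, the order of the genes differed between the lines. In SW480 CCND1 led with 417 CPM per kilobase, ahead of MYC (83.8), CDK4 (59.0) and CCND2 (48.6), then RB1 (21.4), CDKN1B (19.4) and CDK6 (18.5), then CCND3 (12.9), CDKN2C (4.54) and CDKN2B (1.78). In SW620 CDK6 led with 105, just ahead of CCND1 (99.3), followed by MYC (76.3) and CDK4 (43.0), and CCND2 came last with 0.0891. With 1 library per line no spread is known, so close neighbours such as CDK6 and CCND1 in SW620 cannot be ordered with certainty. In shNC the order was MYC (213 ± 27.3, SD, n = 3), CCND1 (135 ± 5.69), CDK4 (72.7 ± 3.74), CDK6 (32.9 ± 0.397), CDKN1B (13.8 ± 0.297), RB1 (11.1 ± 0.435), CCND3 (10.8 ± 1.10), CDKN2B (8.22 ± 0.204), CDKN2C (2.37 ± 0.161) and CCND2. Of these neighbours, RB1 and CCND3 had overlapping ranges. In shFOXA2 the leading genes were again MYC (196 ± 11.7), CCND1 (92.1 ± 3.76), CDK4 (59.1 ± 1.64) and CDK6 (47.4 ± 1.67). There CDKN1B, CCND3, RB1 and CDKN2B lay close together, each overlapping the next, at 13.7 ± 1.22, 13.2 ± 0.729, 13.1 ± 0.679 and 12.8 ± 0.655.

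**Figure D4:**
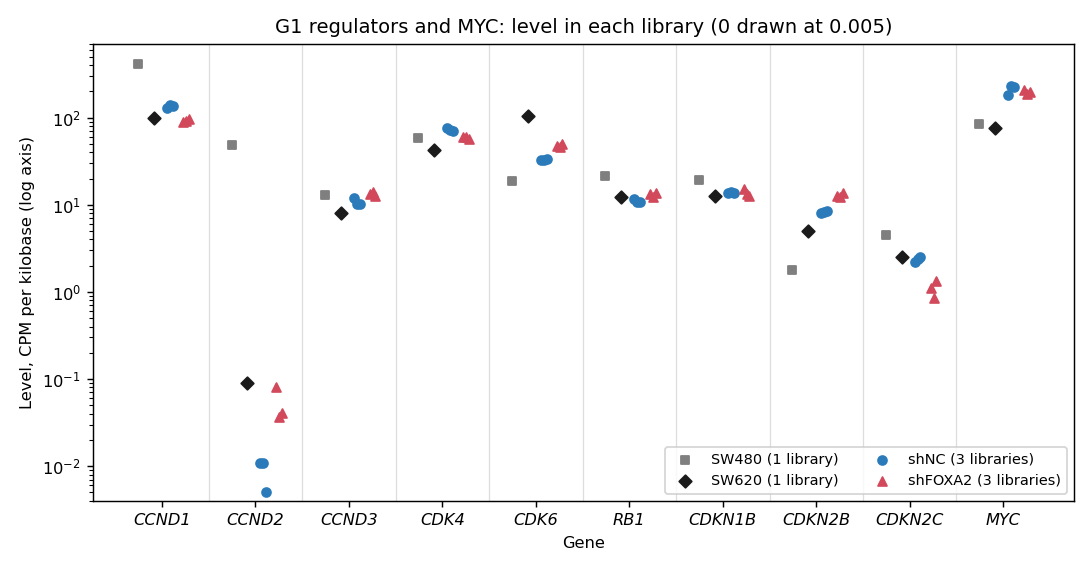
Level of each gene in CPM per kilobase on a log axis, 1 point per library, with a library at 0 drawn at 0.005. CCND2 spans the widest range, from 48.6 in SW480 to 0 in 1 shNC library, and MYC is higher in all 6 hairpin libraries than in either untreated line.

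Untreated SW620 and SW620 with the control hairpin were not alike for these genes. CDK6 stood at 105 CPM per kilobase in untreated SW620 and 32.9 ± 0.397 in shNC, and MYC at 76.3 and 213 ± 27.3. The untreated libraries are deeper and have a larger mitochondrial share, and the hairpin vector and these library differences cannot be told apart, so no test was made between them. For MYC, the 3 genes with the most similar pattern over the 8 libraries were DUSP1 (root mean square log2 difference 0.107), ATP5EP2 (0.116) and PTGES3L-AARSD1 (0.118), out of 12558 genes. For CCND1 they were ZCCHC14 (0.127), AATF (0.143) and IL17D (0.143). For CCND2 the nearest genes, KRT5 (0.692), TGM2 (0.744) and GLI3 (0.919), lay much farther off.

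Promoters were examined for the motif that MYC and its partner MAX bind, the E-box, because MYC and several genes with promoter entries are described together here. RefSeq (GRCh38.p14) promoters, 250 bases before to 50 after the start, were matched for 7 of the 10 genes; CCND1, CCND2 and MYC are named only. The entries of 4 genes that moved in the hairpin libraries are shown 5′ to 3′ on the gene's strand, with E-boxes (CACGTG) in capitals.
CDK4, chr12:57752261-57752560, minus strand, GRCh38.p14: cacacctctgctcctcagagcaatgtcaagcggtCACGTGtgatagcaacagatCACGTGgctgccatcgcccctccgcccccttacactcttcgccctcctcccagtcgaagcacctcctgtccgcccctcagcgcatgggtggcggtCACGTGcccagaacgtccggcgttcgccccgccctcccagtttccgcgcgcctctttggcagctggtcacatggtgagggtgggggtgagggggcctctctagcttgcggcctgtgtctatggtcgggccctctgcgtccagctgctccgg
CDK6, chr7:92836524-92836823, minus strand, GRCh38.p14: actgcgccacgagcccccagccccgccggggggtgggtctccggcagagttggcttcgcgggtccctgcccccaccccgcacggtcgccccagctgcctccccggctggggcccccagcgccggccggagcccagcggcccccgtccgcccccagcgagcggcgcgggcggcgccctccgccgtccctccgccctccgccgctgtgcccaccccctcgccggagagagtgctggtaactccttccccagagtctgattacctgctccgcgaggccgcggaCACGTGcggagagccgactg
CDKN2B, chr9:22009256-22009555, minus strand, GRCh38.p14: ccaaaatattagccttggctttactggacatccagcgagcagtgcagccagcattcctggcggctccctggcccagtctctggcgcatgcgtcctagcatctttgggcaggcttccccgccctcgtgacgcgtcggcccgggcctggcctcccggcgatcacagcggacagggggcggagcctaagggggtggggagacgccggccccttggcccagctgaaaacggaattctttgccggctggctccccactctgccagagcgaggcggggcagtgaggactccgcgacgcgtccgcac
CDKN2C, chr1:50969995-50970294, plus strand, GRCh38.p14: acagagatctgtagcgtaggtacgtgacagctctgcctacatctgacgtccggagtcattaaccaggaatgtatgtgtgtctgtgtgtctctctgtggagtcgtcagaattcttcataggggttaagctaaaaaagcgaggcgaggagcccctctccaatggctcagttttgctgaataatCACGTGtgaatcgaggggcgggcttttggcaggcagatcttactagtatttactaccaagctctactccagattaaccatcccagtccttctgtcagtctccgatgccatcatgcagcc
The E-box reads the same on both strands and occurs in 7.23% of 34943 RefSeq promoters of this length. CDK4 held 3, at positions -216, -196 and -101 from the start, and only 33 promoters (0.0944%) held 3 or more. CDK6 held 1 at position 30, and this CDKN2C entry, 1 of 3 starts listed, held 1 at -69. Of the other CDKN2C starts, that at chr1:50960495-50960794 held 1 at -220. The remaining CDKN2C and CDK6 starts held none, and neither did any entry of CDKN2B, CDKN1B, CCND3 or RB1. CCND3 and RB1 also moved in the hairpin libraries, and their entries are not shown. The forkhead motif TGTTTAC or TGTTTGC, searched on both strands and found in 7.17% of promoters, occurred once among the entries of the 7 genes, in CCND3 at position -2 of the start at chr6:42048639-42048938. The E2F motif TTTCGCGC or TTTGGCGC, also searched on both strands (1.14% of promoters), occurred in none. The RB1 entry, chr13:48476200-48476499, lies well inside the RB1 span, which starts at 48303726. The sequence around that start was therefore not searched for any of these motifs. These matches describe letters in the window and are not evidence of binding.

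The other genes of the G1 pathway were counted in 9 lists, 2 genes (CCNE1 and CCNE2) standing in 2 of them. Over the lists together 37 of 67 genes tested passed in the hairpin libraries, beside 39.0% of all tested genes. Of 10 listed genes that E2F factors are known to switch on at S-phase entry, 9 passed, all lower in shFOXA2. The list median of the log2 fold change was -0.35 (0.01 over all tested genes). This list was written with earlier results of these data known and does not hold every such gene. Counted in another list, CDC25A rose (0.49, adjusted p = 3.13e-09) and CCNA2 did not pass (-0.01, adjusted p = 0.950). CDC6, which loads the replicative helicase, went from 85.9 to 57.6 CPM (log2 fold change -0.58, adjusted p = 1.97e-11). PCNA, the sliding clamp of DNA polymerase, went from 606 to 451 (-0.43, adjusted p = 2.81e-11). MYBL2, a transcription factor of the cell cycle, went from 105 to 74.2 (-0.51, adjusted p = 2.34e-08). The gene of the list that did not pass was RRM2, a subunit of ribonucleotide reductase, with a log2 fold change of -0.02. Lower calls in this list numbered 7 with shFOXA2 replicate 1 left out and 8 with shNC replicate 1 or shNC replicate 3 left out. The DESeq2 test and an adjusted p threshold of 0.01 each gave 8 as well.

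Of 10 genes for E2F factors and their DP partners, 5 passed lower and 1 higher, with a median of -0.16. E2F1 measured 74.9 ± 0.889 CPM in shNC and 56.0 ± 1.28 in shFOXA2 (n = 3 each, log2 fold change -0.42, adjusted p = 4.65e-08). E2F2 went from 15.3 to 7.67 CPM (-1.01, adjusted p = 4.81e-08) and E2F3 from 57.1 to 43.5 (-0.40, adjusted p = 4.33e-06). All 3 are activating members of the family. E2F8 (-0.47, adjusted p = 0.000273) and TFDP1 (-0.23, adjusted p = 2.97e-05) passed lower too, so the falls were not limited to these 3. E2F5 passed higher (0.28, adjusted p = 0.00130), and E2F4, E2F6, E2F7 and TFDP2 did not pass. TFDP2 passed lower with shFOXA2 replicate 1 left out (-0.20, adjusted p = 0.0106). The pocket protein genes RBL1 and RBL2, relatives of RB1, did not pass, with log2 fold changes of 0.11 (adjusted p = 0.446) and -0.11 (adjusted p = 0.118). So RB1 was the 1 called gene among the 3 pocket protein genes.

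Of the E cyclins, CDK2 and their activators, 5 tested, 3 passed lower and 1 higher. CCNE1, the gene of cyclin E1, went from 5.82 to 3.79 CPM (log2 fold change -0.64, adjusted p = 0.00649), but missed the threshold once shFOXA2 replicate 1 was left out (adjusted p = 0.0544). Then 1 gene of the list passed lower, and 2 did so when shNC replicate 1 or shNC replicate 3 was left out instead. CDK2 fell by 0.24 on the log2 scale (adjusted p = 0.000611), while CDC25A, the phosphatase that activates CDK2, rose from 61.4 to 86.2 CPM (0.49, adjusted p = 3.13e-09). None of the 3 genes of the CDK-activating kinase passed: CDK7 had a log2 fold change of 0.01 (adjusted p = 0.891), CCNH 0.12 (adjusted p = 0.0687) and MNAT1 -0.14 (adjusted p = 0.204).

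Of the other CDK inhibitors, 2 passed higher and 1 lower of 5. CDKN2D, the gene of the INK4 protein p19, fell from 13.9 to 8.96 CPM (log2 fold change -0.61, adjusted p = 0.000342), the same direction as CDKN2C. CDKN1A, the gene of p21 and a p53 target, rose from 8.23 to 11.2 CPM (0.45, adjusted p = 0.00704). CDKN1C, the gene of p57, rose from 9.11 to 11.6 CPM (0.35, adjusted p = 0.0371), but did not hold in each library-wise repeat. Its adjusted p was 0.0678 and 0.210 with shFOXA2 replicate 1 or 3 left out, and 0.116 and 0.193 with shNC replicate 2 or 3 left out. CDKN3 did not pass, with a log2 fold change of -0.05 (adjusted p = 0.602). CDKN2A did not pass, with a log2 fold change of -0.07 (adjusted p = 0.838), and passed lower without shFOXA2 replicate 1 (-0.31, adjusted p = 0.000105). CDKN1A was also the 1 gene of this list past 4-fold between the untreated lines, 5.56-fold higher in SW480 (4042 against 998 counts, exact 95% interval 5.19 to 5.97).

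Around MYC, 9 of 10 listed network partners were tested, of which 2 passed higher and 1 lower. MAX, the obligate partner of MYC, rose from 77.6 to 94.4 CPM (log2 fold change 0.28, adjusted p = 1.01e-05). MYCN fell from 3.33 to 1.14 CPM (-1.52, adjusted p = 3.35e-05). MXD4, which competes with MYC for MAX, rose from 34.2 to 40.2 CPM (0.24, adjusted p = 0.0107), but its adjusted p was 0.105 with shFOXA2 replicate 3 left out and 0.0671 with shNC replicate 2 left out. MNT, another competitor of MYC for MAX, did not pass, with a log2 fold change of -0.22 (adjusted p = 0.0989). It passed lower at adjusted p = 0.0191 with shFOXA2 replicate 1 left out, at adjusted p = 0.0122 with shNC replicate 3 left out, with the replicate number as a block (adjusted p = 0.0264) and without the expression filter (adjusted p = 0.00512), each of which gave 2 lower calls in this list. MXD4 was 7.12-fold higher in SW620 than in SW480 (3853 against 394 counts, exact 95% interval 6.42 to 7.92). It was the 1 gene of this list called between the lines. MYCN was 7.68-fold higher in SW620 (253 against 24 counts, exact 95% interval 5.04 to 12.2). MYCN was not called, since its log2 ratio of CPM + 1 was 1.43, short of 4-fold.

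Growth genes that MYC is known to activate did not move as a body: of 15 tested, 5 passed higher and 4 lower, with a median of 0.05. TFRC, the transferrin receptor, fell from 693 to 437 CPM (log2 fold change -0.67, adjusted p = 3.06e-17). BOP1, a ribosome assembly factor, fell from 123 to 85.5 (-0.53, adjusted p = 5.58e-12), and FBL, the nucleolar methyltransferase fibrillarin, from 292 to 240.0 (-0.28, adjusted p = 1.24e-06). The 4 lower calls remained 4 in number when any library was left out. The 5 higher calls dropped to 1 without shFOXA2 replicate 2, shFOXA2 replicate 3 or shNC replicate 3 and to 3 without shFOXA2 replicate 1 or shNC replicate 2.

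Of 10 genes that control turnover of cyclins, p27 and MYC, 2 passed higher and 3 lower. SKP2, part of the ubiquitin ligase that marks p27 for degradation, rose from 73.2 to 98.6 CPM (log2 fold change 0.43, adjusted p = 2.43e-09). AURKA, a mitotic kinase known to stabilise MYC-family proteins, fell from 105 to 82.1 CPM (-0.35, adjusted p = 2.00e-07). Higher calls in this list numbered 1 with shFOXA2 replicate 3 or shNC replicate 3 left out, and lower calls 2 with shFOXA2 replicate 1, shFOXA2 replicate 3, shNC replicate 2 or shNC replicate 3 left out.

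**Figure D5:**
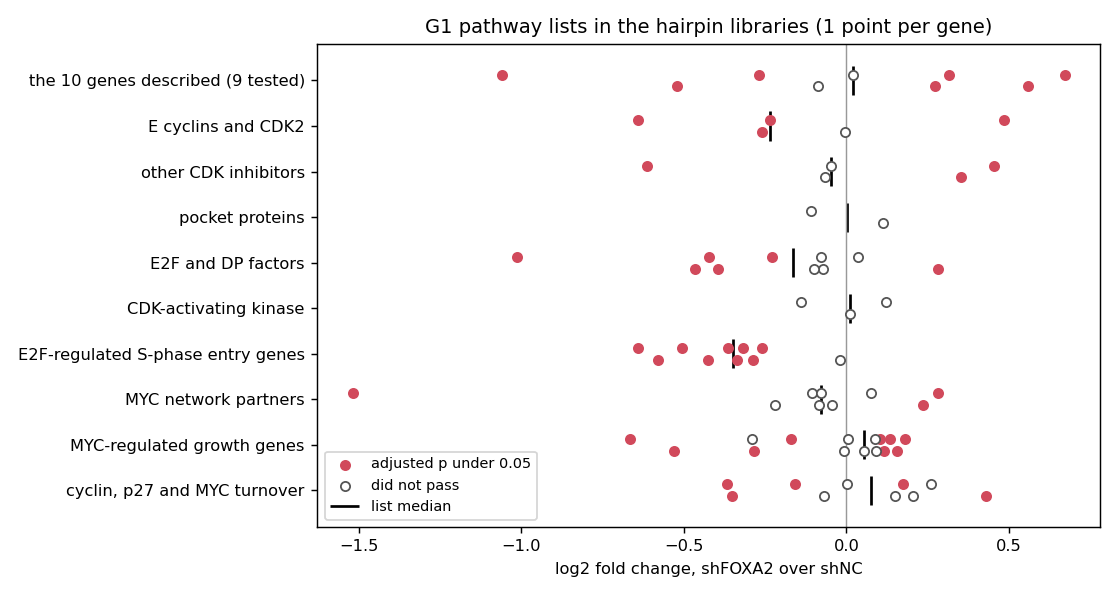
Log2 fold change of shFOXA2 over shNC for each gene of the G1 and MYC lists, 1 point per gene; filled points passed at an adjusted p under 0.05 and black lines are list medians. The listed S-phase entry genes lie to the left of 0, while the 9 tested G1 regulators lie on both sides around a median of 0.02.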

How the data were processed

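Each of the 8 libraries had 1 deposited table with raw counts, a gene length and RPKM for 42713 genes. The authors' deposited RPKM equals the count scaled by length and table total for 100% of 125082 values checked (relative tolerance 1e-04), and only the deposited counts were analysed. The kit was directional per the labels' protocols. HOMER and hg19 are named, without a role, per the submitters' processing notes. Not given in the sources used here are the aligner, counter, annotation and use of strand. Of repeated symbols (256), the entry with the highest summed count was kept.

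The hairpin libraries (3 against 3) were compared with edgeR 4.0.16 under R 4.3.3 (quasi-likelihood, robust, two-sided, TMM scaling, default expression filter, Benjamini-Hochberg over all tested genes at 0.05). CPM of a hairpin library is TMM-scaled over the 6 libraries. A biological coefficient of variation of 6.59% was fitted. The SE was taken from F, as log2 fold change over root F. Chi-square per degree of freedom between replicates was 1.66 to 4.53, highest in pairs with replicate 1 of each group, so no libraries were duplicates. Untreated lines were compared without a test, by the log2 ratio of CPM + 1. Genes needed 20 or more counts in 1 library, and a difference of 4-fold or more was called. Folds of single genes come from counts over TMM-scaled totals. The method was tested on simulated data.

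The 10 genes, the lists and the tests were chosen with earlier results of these data known. Of each list, up to 3 genes with the lowest p, up to 3 called between the lines with the largest ratio and all genes beside the 10 were named. For CCND1, CCND2 and MYC the 3 genes nearest in centred log2(CPM + 1), at a mean log2 CPM of at least 2, were named. The values of 1 gene that this rule takes are not reported here. RRM2, CCNA2, CDKN2A, CDKN3, E2F4, E2F5, E2F6, E2F7, E2F8, TFDP1, TFDP2 and MNT were named after their values were seen. Pieces ACACGTA and AACACGT came from earlier work on these data. Locations and 3′ UTRs came from GENCODE v29 (GRCh38), a build other than hg19, and promoters from RefSeq GRCh38.p14. Alternatives were scaling (DESeq2 1.42.0 size factors, total counts), DESeq2 and limma-voom (limma 3.58.1), filter, threshold, pseudocount, length scaling, a replicate block and each hairpin library left out. Plots used matplotlib 3.10.9 in Python 3.11.15.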

Additional observations from a re-analysis of the deposited data

How the results depend on the processing

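Of 126 alternative values for the log2 fold changes of the 9 tested genes, 125 kept their side of the threshold; the exception was MYC without shNC replicate 1. CDKN1B, which passed under none of them, ranged from -0.06 to 0.06 and so had no stable direction. Without the expression filter CCND2 was added to the 7 called genes, making 8. Genes called over the whole table numbered 4725 to 6286 (5299 to 5872 with a library left out), against 6280. With the replicate number as a block 6139 genes and the same number of the 10 genes, 7, were called. Correlations of deviations between same-numbered libraries were -0.004, -0.047 and -0.005, so no pairing by number was seen over all genes. With 3 libraries per group these values cannot exclude a pairing or a shared batch. The block changed no call of the 10. The split of higher and lower calls was 2699 to 3497 without the filter and 2900 to 3313 with total counts, against 3095 to 3185. Called genes among the lists numbered 28 to 37. With a pseudocount of 0.1 CPM, 2539 genes lay 4-fold apart between the lines, against 1098, and the log2 ratio of CCND2 moved from -7.70 to -8.86. Line ratios rest on 1 library each, and the counts of CCND2 in the hairpin libraries are too low for a call.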
